A study of Mus musculus with 6 samples.

Results

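The genes described here are 10 transcription regulators of heart and vessel development: the GATA factors Gata4, Gata6 and Gata2, their cofactors Zfpm1 and Zfpm2, the T-box factors Tbx18 and Tbx20, the basic helix-loop-helix (bHLH) factors Hand2 and Tcf21, and the homeobox factor Meox1. They were chosen by symbol, and all 10 were found among the 29752 genes of the deposited files. The values come from RNA sequencing of aorta tissue of C57BL/6 mice aged 15 weeks, which had eaten a normal diet for 7 weeks from an age of 8 weeks. Libraries of 3 wild-type samples (titled as controls) were compared with 3 from mice heterozygous for Palmd (genotype PALMD+/-), which encodes palmdelphin, a member of the paralemmin proteins. The labels name no other allele or agent, and do not say how the Palmd allele was altered or whether each library is from 1 animal, so that p-values measure the spread between these samples, which may be technical.

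GATA factors bind DNA through zinc fingers and recruit the FOG proteins, encoded by Zfpm1 and Zfpm2, which do not bind the GATA sites themselves but modify what the GATA factor does there, in part through the NuRD and CtBP corepressor complexes. GATA6 is the main GATA factor of vascular smooth muscle and GATA2 that of endothelium, while GATA4, TBX20 and HAND2 are best known from the embryonic heart. TBX18 marks pericytes, mural cells and epicardium, TCF21 marks fibroblast precursors and adventitial cells, and MEOX1 is a factor of somites that is also used by activated fibroblasts. Several of these factors have further sites of action, among them GATA2 in mast cells, FOG-1 in the erythroid and megakaryocyte lineages and HAND2 in sympathetic neurons.

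Values are FPKM, reads scaled to the length of the gene and to the depth of the library. Levels of different genes can be compared only as far as their reads were counted equally well, and how completely each gene was counted is not known. The libraries rested on 17283951 to 18372131 reads, and 1 read on a gene of 2 kb was worth 0.0272 to 0.0289 FPKM. Markers of the 3 main cell types of the aortic wall were present in every library: the smooth muscle actin Acta2 was at 3701 to 8367 FPKM, the endothelial adhesion molecule Pecam1 at 72.0 to 424 FPKM and the fibroblast proteoglycan Dcn at 314 to 435 FPKM. Heterozygote replicate 2 stood apart. Its mean correlation with the other libraries was 0.930, against 0.960 to 0.971 for the rest, and it had the lowest summed endothelial (337 FPKM against 918 to 991) and smooth muscle markers (4868 against 7235 to 10424) and the highest white adipocyte (5554 against 1612 to 4249) and Schwann cell markers (76.9 against 14.04 to 23.0). In such bulk samples fewer cells of a type and less RNA per cell cannot be told apart. Palmd itself was at 5.49, 7.88 and 10.1 FPKM in the wild-type and at 5.31, 7.19 and 6.21 FPKM in the heterozygote libraries, so that the groups overlapped (log2 fold change -0.26 with an SE of 0.21; limma adjusted p = 0.915), and its level does not check the genotype labels.

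In the wild-type aorta the factors ran from abundant to almost without reads. Gata6 was the highest at 30.5 ± 1.63 FPKM (SD, n = 3), followed by Gata2 at 17.3 ± 3.43 and Zfpm1 at 13.9 ± 2.14 FPKM, whose ranges of 15.0 to 21.3 and 11.5 to 15.6 FPKM touched. Tbx18 was at 6.54 ± 2.36 FPKM and Zfpm2 at 3.24 ± 0.245 FPKM. Meox1, at 2.39 ± 0.8002 FPKM, and Tcf21, at 1.61 ± 0.225 FPKM, did not differ beyond their spread, nor did Hand2, at 0.336 ± 0.225 FPKM, and Tbx20, at 0.196 ± 0.0745 FPKM. Gata4 was the lowest, at 0.0330 ± 0.0358 FPKM. As ratios of means, the largest gaps between neighbours in this order lay on both sides of the group formed by Hand2 and Tbx20.

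**Figure D1:**
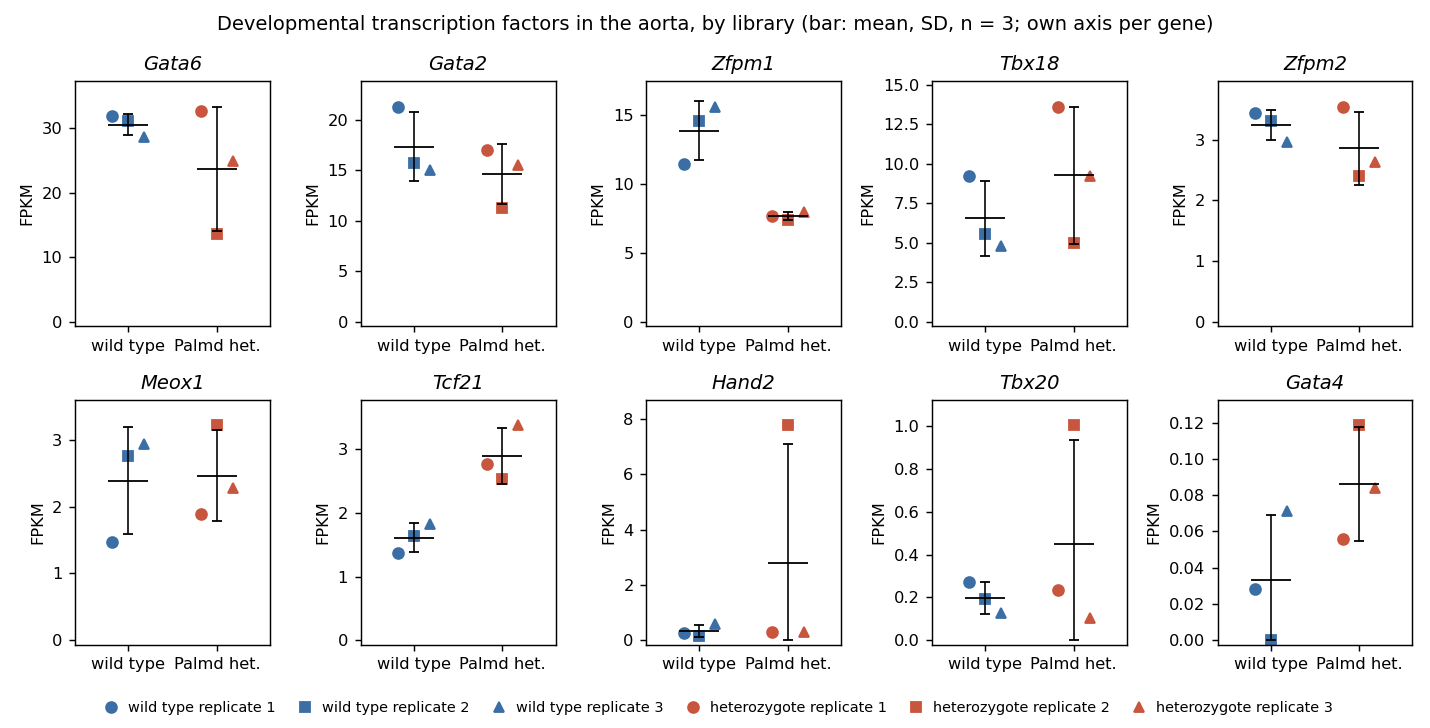
FPKM of each factor in the 6 libraries, each gene on its own linear axis; symbols are libraries, the horizontal bars are means and the vertical bars SD (n = 3, ended at 0 where they would reach below). The 3 heterozygote values of Zfpm1 lie below, and those of Tcf21 above, all wild-type values, while Hand2 is at 7.78 FPKM in heterozygote replicate 2 and at 0.590 FPKM or less elsewhere.

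The genotype comparison asked which genes differ in the aorta when 1 Palmd allele is altered. None of the 10 factors passed the test. Genes that reached 1 FPKM in 3 or more libraries were fitted together with limma on log2(FPKM + 1), a scale that understates the change of low genes. The 7 factors tested were Gata6, Gata2, Zfpm1, Zfpm2, Tbx18, Meox1 and Tcf21, each of which had at least 1 FPKM in all 6 libraries. Of these 0 had an adjusted p under 0.05, and over all 12620 genes tested 0% did. At an unadjusted p under 0.05 there were 2 of the 7, 1 in each direction, where the share over all genes was 6.50% (4.06% higher and 2.44% lower in heterozygotes). Separate groups, with every library of 1 above every library of the other, were found for 2 of the 7, Zfpm1 (lower in heterozygotes) and Tcf21 (higher), against 12.9% of all genes tested (5.12% lower and 7.80% higher). In a count this small a share cannot be set apart from that background. The median log2 fold change of the 7 was -0.15, beside 0.01 over all genes tested, with 3 higher and 4 lower. Heterozygote replicate 2 was the lowest of the 6 libraries for 4 of the 7 and the highest for 1, beside 34.3% and 26.4% of all genes. Without it the groups were separate for 3 of the 7 and for 33.1% of all genes, a share that rises because fewer libraries are compared. The third was Tbx18, where 796 reads in heterozygote replicate 3 (9.238 FPKM) stood against 795 reads in wild type replicate 1 (9.220 FPKM). That gap lies within counting error.

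**Figure D2:**
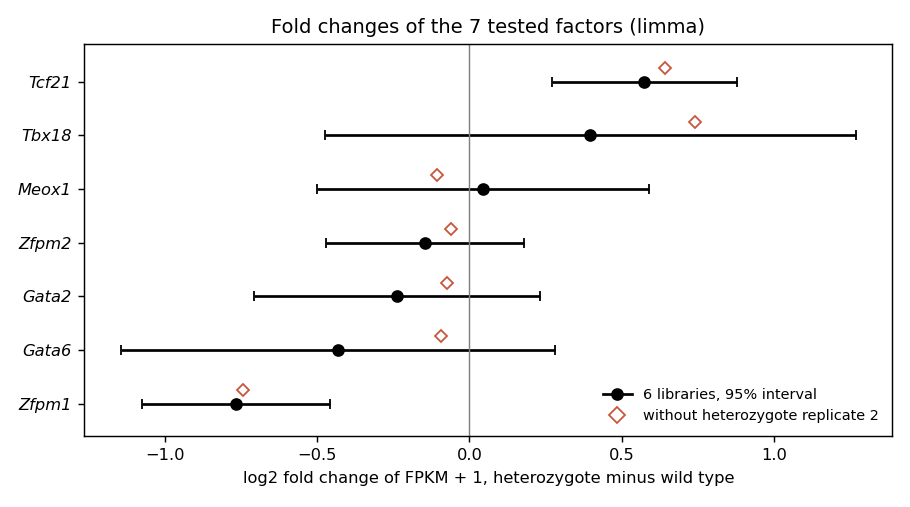
Log2 fold change of FPKM + 1 (heterozygote minus wild type) of the 7 tested factors, with 95% intervals from limma over 6 libraries (black) and the value without heterozygote replicate 2 (open diamonds). The intervals of Zfpm1 (-1.07 to -0.46) and Tcf21 (0.27 to 0.88) do not include 0. Leaving out heterozygote replicate 2 moves Gata6, Gata2 and Zfpm2 towards 0, Zfpm1 slightly so (to -0.74) and Meox1 across 0 (to -0.11).

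Zfpm1, which encodes the cofactor FOG-1 (ENSMUSG00000049577, GRCm38 chromosome 8, 122282141 to 122337251), was lower in every heterozygote library. It measured 11.5, 14.5 and 15.6 FPKM in the wild-type libraries 1 to 3, whereas heterozygotes 1 to 3 had 7.68, 7.40 and 7.97 FPKM. The lowest wild-type value lay above the highest heterozygote value. The heterozygote mean was 55.4% of the wild-type mean (7.68 ± 0.286 against 13.9 ± 2.14 FPKM, SD, n = 3). The estimated log2 fold change, -0.77 with an SE of 0.13, had a 95% interval from -1.07 to -0.46 and a limma adjusted p of 0.459, and the exact permutation test (two-sided) gave p = 0.1, the smallest that 3 against 3 libraries can give. The values rest on 734 to 983 reads in wild-type and 448 to 510 reads in heterozygote libraries, and the 3 heterozygote values lay within each other's 95% Poisson intervals (6.73 to 8.69 FPKM from the lowest to the highest bound, for counting error only). Over 14 alternative settings the log2 fold change lay between -0.89 and -0.68 and the adjusted p ran from 0.0290 to 1.00. The only setting in which Zfpm1 passed was limma with array quality weights (adjusted p = 0.0290), which gave heterozygote replicate 2 a weight of 0.170 and called 1.84% of all genes.

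The promoter of Zfpm1 is shown because its groups did not overlap. The 250 bases before its RefSeq start (GRCm38.p6, chr8:122281891-122282140, plus strand, 5′ to 3′) read as follows, where capitals would mark a GATA motif or an E-box and none occurs.
Zfpm1: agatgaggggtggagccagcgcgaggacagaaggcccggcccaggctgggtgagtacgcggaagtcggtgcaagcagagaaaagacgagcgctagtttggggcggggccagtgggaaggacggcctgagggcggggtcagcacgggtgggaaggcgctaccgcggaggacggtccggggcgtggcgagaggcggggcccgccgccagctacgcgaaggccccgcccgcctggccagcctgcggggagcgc
The window had a GC content of 73.2% and 28 CpG dinucleotides, against medians of 52.4% and 6 over 32851 promoter windows of that length. It held 0 GATA motifs (AGATAA on either strand, where the last base may be either purine and the first may also be T) and 0 E-boxes (CANNTG, the site of bHLH factors), which occurred in 26.5% and 66.2% of all windows. The GC box GGGCGG, searched on both strands, occurred 3 times, and at least once in 32.7% of all windows.

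The best known sites of FOG-1 are the erythroid and megakaryocyte lineages. Of their markers, the platelet integrin Itga2b was at 0.601 to 1.05 FPKM. The platelet gene Pf4 was at 19.2 to 31.8 FPKM and the globin Hbb-bs at 48.7 to 217 FPKM. The sum of 12 such markers overlapped between the groups (124 to 461 FPKM in the wild-type libraries and 139 to 339 FPKM in the heterozygotes). The sum of 12 endothelial markers was 918 to 991 FPKM in wild type, and 925 and 929 FPKM in heterozygote replicates 1 and 3. In those 2 libraries the endothelial genes Nos3 (40.8 and 39.2 FPKM, against 47.0 to 66.5 FPKM in wild type) and Egfl7 (30.6 and 25.2 FPKM, against 33.3 to 38.2 FPKM) were below every wild-type library, as Zfpm1 was. Emcn, Esam and Kdr were below as well, while Pecam1, Cdh5, Tek, Tie1, Vwf, Cldn5 and Erg were not below in both. Vwf was at 122 and 109 FPKM (102 to 114 FPKM in wild type). Cldn5 was at 59.7 and 98.2 FPKM (40.4 to 60.6 FPKM in wild type). The part of endothelial RNA in the Zfpm1 level was not tested. Per 1000 FPKM of endothelial markers Zfpm1 was at 11.6, 15.8 and 16.9 in wild type and at 8.30, 21.97 and 8.58 in heterozygotes. On this scale replicate 2 was the highest of all libraries and the others of its group were the lowest. The largest term of the marker sum was Pecam1, at 72.0 FPKM in heterozygote replicate 2 and 352 to 424 FPKM in the others. The groups overlapped (exact two-sided permutation p = 0.8, n = 3 and 3).

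Zfpm2, which encodes FOG-2, the partner of GATA4 and GATA6 in heart and mesenchyme, did not separate. It measured 3.44, 3.32 and 2.97 FPKM in the wild-type libraries, whereas the heterozygotes had 3.55, 2.40 and 2.64 FPKM. Heterozygote replicate 1 was the highest and replicate 2 the lowest of the 6 libraries. The estimated log2 fold change, -0.15 with an SE of 0.13, had a 95% interval from -0.47 to 0.18 and a limma adjusted p of 0.924, and the interval spans folds of FPKM + 1 from 0.722 to 1.13. It ranged from -0.27 without heterozygote replicate 1 to -0.06 without heterozygote replicate 2. Of the 17 FOG cofactors and members of the NuRD and CtBP complexes, all tested, 0 passed, 7 were higher and 10 lower, and the median log2 fold change was -0.01. The groups did not overlap for Zfpm1 and for Mta3, a NuRD subunit, which was at a mean of 5.34 FPKM in wild-type and 6.40 FPKM in heterozygote libraries (log2 fold change 0.22, limma adjusted p = 0.805). Over all genes tested the share without overlap was 12.9%. The corepressor Ctbp2 had a log2 fold change of -0.26, the NuRD subunit Gatad2a one of -0.17 and the histone-binding subunit Rbbp4 one of -0.13, each with overlapping groups.

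Gata6 measured 31.8, 31.0 and 28.7 FPKM in the wild-type libraries, whereas the heterozygotes had 32.6, 13.6 and 25.0 FPKM. Heterozygote replicate 1 held the highest and replicate 2 the lowest value, so that the groups overlapped. The estimated log2 fold change, -0.43 with an SE of 0.30, had a 95% interval from -1.14 to 0.28 and a limma adjusted p of 0.880. Leaving out heterozygote replicate 2 gave -0.09, and leaving out heterozygote replicate 1 gave -0.69. Heterozygote replicate 2 was also the library with the lowest smooth muscle markers. Per 1000 FPKM of 10 smooth muscle markers, Gata6 was at 3.12, 3.46 and 3.96 in wild type and at 3.19, 2.79 and 2.40 in heterozygotes. On that scale heterozygote replicate 2 lay between the other libraries of its group (means 3.51 ± 0.427 and 2.79 ± 0.399, SD, n = 3, exact two-sided permutation p = 0.2). Myh11, the smooth muscle myosin of that list, was at 612 to 1166 FPKM.

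Gata2, the endothelial GATA factor (GRCm38 chromosome 6, 88193891 to 88207032), measured 21.3, 15.7 and 15.0 FPKM in the wild-type libraries, whereas the heterozygotes had 17.0, 11.3 and 15.6 FPKM. Wild type replicate 1 was the highest and heterozygote replicate 2 the lowest. The estimated log2 fold change, -0.24 with an SE of 0.20, had a 95% interval from -0.71 to 0.23 and a limma adjusted p of 0.915, and it was -0.07 without heterozygote replicate 2, -0.35 without heterozygote replicate 1 and -0.09 without wild type replicate 1. Per 1000 FPKM of endothelial markers Gata2 was at 21.5, 17.1 and 16.3 in wild type and at 18.3, 33.4 and 16.8 in heterozygotes. Heterozygote replicate 2 turned from the lowest library in FPKM to the highest on this scale. The scale depends on the markers summed, of which Pecam1 is the largest term. Pecam1 was at 72.0 FPKM in that library and 352 to 424 FPKM in the others. Cdh5 fell less, to 52.6 FPKM (75.7 to 80.9 FPKM in the others), and Kdr was the highest there, at 14.6 FPKM (3.43 to 5.42 FPKM). The mast cell markers, another site of GATA2, summed to 67.3 FPKM in that library and to 28.1 to 49.5 FPKM in the others, and their part in its Gata2 level was not tested.

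Gata4, the cardiac GATA factor, was close to the limit of detection and was not tested. Its 2, 0 and 5 reads in wild type and 4, 8 and 6 reads in heterozygotes correspond to 0.0280, 0 and 0.0711 FPKM and to 0.0561, 0.119 and 0.0842 FPKM. The 0 in wild type replicate 2 allows up to 0.0418 FPKM (3 reads), and the highest value has a 95% exact Poisson interval of 0.0512 to 0.234 FPKM. Between the groups a difference was not detectable at this depth (exact two-sided permutation p = 0.2, n = 3 and 3). The 15 heart muscle markers summed to 11.4 to 20.5 FPKM in the wild-type libraries and 10.7 to 20.6 FPKM in the heterozygotes. The cardiac actin Actc1 was at 5.47 to 17.1 FPKM and the calcium release channel Ryr2 at 1.02 to 1.93 FPKM, while the atrial peptide gene Nppa was at 0 to 0.127 FPKM and the myosin Myh6 at 0.0700 to 0.574 FPKM. Of the other GATA family genes, Gata5 was at 0 in all libraries, Gata1 at 0.0712 FPKM or less and the repressor Trps1 at group means of 0.988 and 1.01 FPKM. Gata3 measured 1.76, 1.46 and 1.37 FPKM in the wild-type libraries, whereas the heterozygotes had 1.97, 2.63 and 2.15 FPKM, and its groups did not overlap (log2 fold change 0.36 with an SE of 0.12; limma adjusted p = 0.699).

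**Figure D3:**
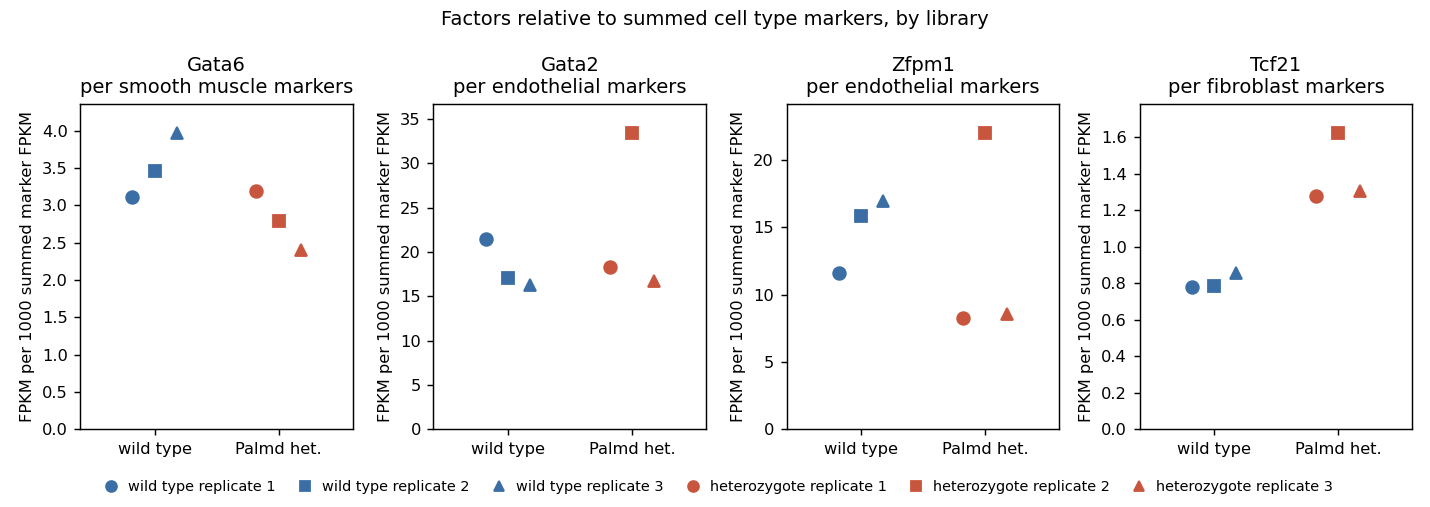
Gata6, Gata2, Zfpm1 and Tcf21 as FPKM per 1000 summed FPKM of smooth muscle, endothelial or fibroblast markers (linear axes from 0), 1 symbol per library. Heterozygote replicate 2 has the highest Gata2 (33.4) and Zfpm1 (21.97) on this scale, and Tcf21 is at 1.28 to 1.62 in heterozygotes and at 0.782 to 0.857 in wild type.

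Tcf21 (GRCm38 chromosome 10, 22817281 to 22820174), which encodes a bHLH factor of mesenchymal and adventitial fibroblast precursors, was the member that separated upwards. It measured 1.37, 1.65 and 1.82 FPKM in the wild-type libraries, whereas the heterozygotes had 2.77, 2.54 and 3.38 FPKM. All 3 heterozygote libraries were above all wild-type libraries. The heterozygote mean was 1.80-fold the wild-type mean (2.90 ± 0.435 against 1.61 ± 0.225 FPKM, SD, n = 3). The estimated log2 fold change, 0.57 with an SE of 0.13, had a 95% interval from 0.27 to 0.88 and a limma adjusted p of 0.548, with an exact two-sided permutation p of 0.1. The values rest on only 59 to 77 reads in wild-type and 103 to 145 reads in heterozygote libraries. The 95% Poisson interval of the highest wild-type value (1.44 to 2.27 FPKM) overlapped that of the lowest heterozygote value (2.07 to 3.08 FPKM). Over 13 alternatives the log2 fold change ran from 0.49 to 0.84 and the adjusted p from 0.0317 to 1.00, and array quality weights was again the only setting in which the gene passed.

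The fibroblast markers as a whole did not separate the groups. The sum of 10 such genes was 1757 to 2125 FPKM in the wild-type libraries and 1565 to 2586 FPKM in the heterozygotes, and the receptor Pdgfra, which defines the cell type, was at 14.2 to 16.4 and 15.4 to 17.0 FPKM. Per 1000 FPKM of these markers Tcf21 was at 0.782, 0.784 and 0.857 in wild type and at 1.28, 1.62 and 1.31 in heterozygotes. The groups did not overlap on that scale either (0.807 ± 0.0426 against 1.40 ± 0.189, SD, n = 3, exact two-sided permutation p = 0.1). Per 1000 FPKM of white adipocyte markers they did overlap, with Tcf21 at 0.714, 0.556 and 0.428 in wild type and at 1.72, 0.457 and 1.52 in heterozygotes (exact two-sided permutation p = 0.3, n = 3 and 3). Of the 10 fibroblast markers the groups did not overlap for Col14a1, an adventitial collagen, which was higher in heterozygotes (log2 fold change 0.37, limma adjusted p = 0.770). Among all genes tested 12.9% had separate groups. The mesothelial genes Upk3b and Wt1, which mark another site of Tcf21, were at 0.0154 to 0.754 and 0 to 0.0841 FPKM.

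Tbx18, a T-box factor of mural cells (GRCm38 chromosome 9, 87702800 to 87731260), measured 9.22, 5.57 and 4.81 FPKM in the wild-type libraries, whereas the heterozygotes had 13.6, 4.97 and 9.24 FPKM. The groups overlapped widely. The estimated log2 fold change, 0.40 with an SE of 0.36, had a 95% interval from -0.47 to 1.27 and a limma adjusted p of 0.924. It depended on the libraries kept, from 0.10 without heterozygote replicate 1 to 0.74 without heterozygote replicate 2. Meox1 measured 1.47, 2.76 and 2.94 FPKM in the wild-type libraries, whereas the heterozygotes had 1.89, 3.22 and 2.29 FPKM. Its estimated log2 fold change, 0.04 with an SE of 0.23, had a 95% interval from -0.50 to 0.59 and a limma adjusted p of 0.991, and the sign turned without wild type replicate 1 (-0.17) and without heterozygote replicate 2 (-0.11).

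These 2 factors ordered the libraries in opposite ways. The 3 libraries with the most Tbx18 and the least Meox1 were wild type replicate 1 and heterozygote replicates 1 and 3. They were also the 3 with the lowest sums of 10 white adipocyte markers (1925, 1612 and 2224 FPKM, against 2959 to 5554 FPKM in the others) and of 8 brown adipocyte markers (246, 82.0 and 302 FPKM, against 856 to 1322 FPKM). The adipocyte hormone gene Adipoq was at 85.3 to 133 FPKM in the first 3 libraries and at 187 to 325 FPKM in the others. The same 3 libraries had the highest sums of smooth muscle markers (10209, 10206 and 10424 FPKM, against 4868 to 8978 FPKM in the others). Per 1000 FPKM of these markers Tbx18 was at 0.903, 0.621 and 0.665 in wild type and at 1.33, 1.02 and 0.886 in heterozygotes. On that scale the groups overlapped (exact two-sided permutation p = 0.2, n = 3 and 3). The part of smooth muscle RNA in the Tbx18 level was not tested. The part of adipocyte RNA in the levels of Tbx18 and Meox1 was not tested beyond a fit with the white adipocyte level as a covariate, in which Tbx18 had a log2 fold change of 0.28 (limma adjusted p = 0.324) and Meox1 one of 0.10 (adjusted p = 0.768).

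The relative of Meox1, Meox2, which is a factor of quiescent vascular cells and limb muscle, was more abundant and separated. It measured 13.8, 10.9 and 12.7 FPKM in the wild-type libraries, whereas the heterozygotes had 15.3, 20.0 and 16.6 FPKM. All 3 heterozygote libraries were above all wild-type libraries (log2 fold change 0.44 with an SE of 0.14; limma adjusted p = 0.648). Of the 9 homeobox factors of the MEOX and paired-related list, 5 were tested and 0 passed, with a median log2 fold change of 0.02. Among 6 tested T-box genes 0 passed, 4 were higher and 2 lower, and no member had separate groups. Tbx2 was at 4.44 ± 0.563 FPKM in the wild-type libraries and 6.11 ± 2.21 FPKM in the heterozygotes (SD, n = 3), Tbx6 had a log2 fold change of 0.38, Mga one of -0.14 and Tbx1 one of -0.20.

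Hand2 (ENSMUSG00000038193, GRCm38 chromosome 8, 57320983 to 57324633), a bHLH factor of heart, limb and sympathetic neurons, was high in a single library. It measured 0.256, 0.162 and 0.590 FPKM in the wild-type libraries, whereas the heterozygotes had 0.303, 7.78 and 0.279 FPKM, from 11, 7, 25, 13, 316 and 12 reads. Heterozygote replicate 2 was 13.2-fold above the next highest library, wild type replicate 3. The groups overlapped, the gene did not pass the filter on low values, and the exact permutation test (two-sided) gave p = 0.5 (n = 3 and 3). The mean of the heterozygotes, 2.79 ± 4.32 FPKM (SD, n = 3), was 0.291 FPKM without that library, below the wild-type mean of 0.336 FPKM. The higher heterozygote mean therefore rests on 1 library.

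Its relative Hand1 was highest in the same 2 libraries. It measured 0.0548, 0 and 0.723 FPKM in the wild-type libraries, whereas the heterozygotes had 0, 10.3 and 0.0548 FPKM, and was 14.3-fold higher in heterozygote replicate 2 than in wild type replicate 3. HAND factors are used by sympathetic neurons, and a list of 14 sympathetic neuron markers was therefore read, chosen after these values were seen. All 14 were highest in heterozygote replicate 2 and next highest in wild type replicate 3. Their sum was 6.01, 3.58 and 58.9 FPKM in wild type and 3.99, 776 and 7.04 FPKM in heterozygotes. Dbh, the enzyme that makes noradrenaline, was at 120 FPKM in heterozygote replicate 2, at 5.88 FPKM in wild type replicate 3 and at 0.407 FPKM or less in the other libraries. The neuropeptide gene Npy was at 208, 21.4 and at most 1.06 FPKM. Pnmt, the enzyme of adrenaline synthesis that marks adrenal chromaffin cells, was at 0.475 FPKM or less throughout. Per 1000 FPKM of the 14 markers, Hand2 was at 10.0 in both heterozygote replicate 2 and wild type replicate 3, and at 39.7 to 76.0 in the other 4 libraries. Hand2 therefore did not keep 1 ratio to these markers over all libraries. Hand1 was at 13.3 and 12.3 in the first pair and at 0 to 9.11 in the others. In those others Hand1 rested on 0 to 2 reads, too few to say whether its ratio differed. The part of sympathetic neuron RNA in these levels was not tested.

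**Figure D4:**
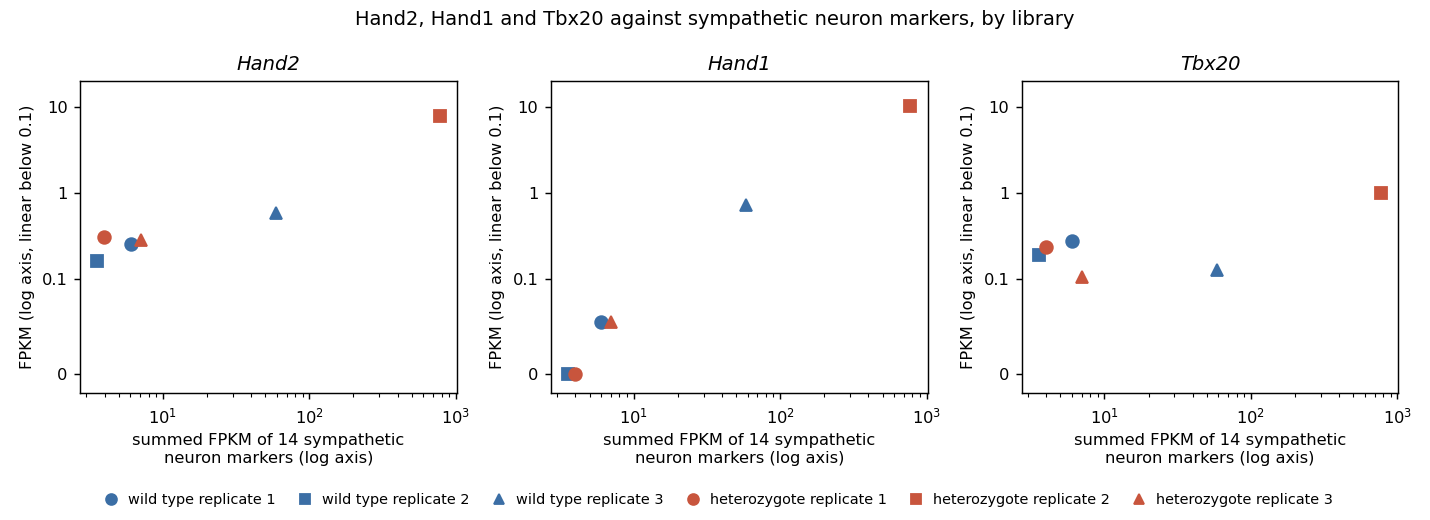
FPKM of Hand2, Hand1 and Tbx20 (log axes, linear below 0.1) against the summed FPKM of 14 sympathetic neuron markers (log axis), 1 symbol per library. Hand2 and Hand1 are highest in heterozygote replicate 2 and next in wild type replicate 3, while Tbx20 in wild type replicate 3 (0.125 FPKM) lies within the range of the remaining libraries.

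The 250 bases before the Hand2 start (RefSeq, GRCm38.p6, chr8:57320733-57320982, plus strand, 5′ to 3′) are shown because both kinds of site named above occur in them. Capitals mark the 2 E-boxes and the 2 GATA motifs.
Hand2: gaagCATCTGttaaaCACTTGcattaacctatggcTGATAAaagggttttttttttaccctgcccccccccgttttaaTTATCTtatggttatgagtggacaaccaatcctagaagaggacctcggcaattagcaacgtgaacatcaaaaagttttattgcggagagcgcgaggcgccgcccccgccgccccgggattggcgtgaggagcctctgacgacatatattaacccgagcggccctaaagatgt
The motifs did not overlap each other. Motifs of either kind are common, as the shares of all windows given above show, and a match does not show that a factor binds there. The window had a GC content of 49.2%. Promoter windows of Gata2, Tbx18, Tbx20 and Tcf21 were also read: Gata2 and Tbx20 held neither motif, Tbx18 held 1 E-box and Tcf21 held 1 GATA motif.

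Tbx20, a T-box factor of heart muscle and endocardium (GRCm38 chromosome 9, 24718138 to 24774303), measured 0.274, 0.191 and 0.125 FPKM in the wild-type libraries, whereas the heterozygotes had 0.233, 1.00 and 0.105 FPKM, from 60, 42, 27, 51, 208 and 23 reads. Heterozygote replicate 2 was again the highest, 3.67-fold above the next library. That next library was wild type replicate 1 and not replicate 3, unlike for Hand2 and Hand1. The gene did not pass the filter, the groups overlapped, and the exact permutation test (two-sided) gave p = 0.7 (n = 3 and 3). Without heterozygote replicate 2 the heterozygote mean was 0.169 FPKM, beside 0.196 FPKM in wild type. The troponin Tnni3, a heart muscle marker, was at 0.897 FPKM in heterozygote replicate 2 and at 0.781 to 1.83 FPKM in the others. Of the same list, Myh6, Myl3, Myl7, Myh7 and Sln were highest in heterozygote replicate 2, each below 1 FPKM. The rest of the list was not highest there, and Actc1 was lowest. The sum of the 15 markers was also lowest in that library (10.7 FPKM, against 11.4 to 20.6 FPKM in the others). The part of heart muscle RNA in the Tbx20 level was not tested.

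The list of HAND and TWIST bHLH factors, E proteins and Id inhibitors, with Tcf21, gave 12 tested genes, of which 0 passed, with 4 higher, 8 lower and a median log2 fold change of -0.22. Besides Tcf21 the groups did not overlap for Id2, an inhibitor that sequesters E proteins, measuring 53.1, 64.1 and 48.9 FPKM in the wild-type libraries, whereas the heterozygotes had 44.9, 39.6 and 41.1 FPKM (log2 fold change -0.39, limma adjusted p = 0.724). Groups without overlap were found for 12.9% of all genes tested. The log2 fold changes of Tcf23, a bHLH repressor (-0.73, SE 0.29), and of the tendon factor Scx (-0.53, SE 0.28) went with overlapping groups. Of the 15 tested cardiac core partners 0 passed and none had separate groups (median log2 fold change -0.05). Nkx2-5, which acts with GATA4 and TBX20 in heart muscle, was at 0.0359 FPKM or less. For the calcineurin target Nfatc1 the log2 fold change was -0.38 (SE 0.15), and for the forkhead factor Foxc2 it was -0.79 (SE 0.40).

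The endothelial and blood partners of the GATA factors gave 11 tested genes, with 0 passing, 2 higher and 9 lower (median log2 fold change -0.15). For 10 of the 11 heterozygote replicate 2, the library with the lowest endothelial marker sum, was the lowest, beside 34.3% of all genes tested. Sox18, an endothelial factor, measured 78.2, 83.2 and 73.0 FPKM in the wild-type libraries, whereas the heterozygotes had 46.1, 24.6 and 44.1 FPKM. The groups did not overlap (log2 fold change -1.06 with an SE of 0.25; limma adjusted p = 0.548). Ldb1, the adaptor that joins GATA, TAL1 and LMO2 into 1 complex, went the other way, measuring 33.0, 30.5 and 25.7 FPKM in the wild-type libraries, whereas the heterozygotes had 41.1, 37.5 and 40.0 FPKM (log2 fold change 0.40 with an SE of 0.13; limma adjusted p = 0.637). Its partner Tal1 was at 5.46, 5.52 and 5.07 FPKM and at 4.99, 1.80 and 4.21 FPKM, also without overlap (log2 fold change -0.52, SE 0.28). Of the 12 endothelial markers 0 passed. The groups did not overlap for 3, all lower in heterozygotes, beside 12.9% of all genes tested and 5.12% in that direction: Nos3, the nitric oxide synthase (58.7 and 30.6 FPKM), Egfl7 (35.3 and 24.6 FPKM) and Esam (42.5 and 34.1 FPKM). For Esam the gap was narrow, with 40.4 FPKM in heterozygote replicate 3 against 40.8 FPKM in wild type replicate 3. Tal1 was separate by a similarly narrow gap, 4.99 FPKM in heterozygote replicate 1 against 5.07 FPKM in wild type replicate 3.

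**Figure D5:**
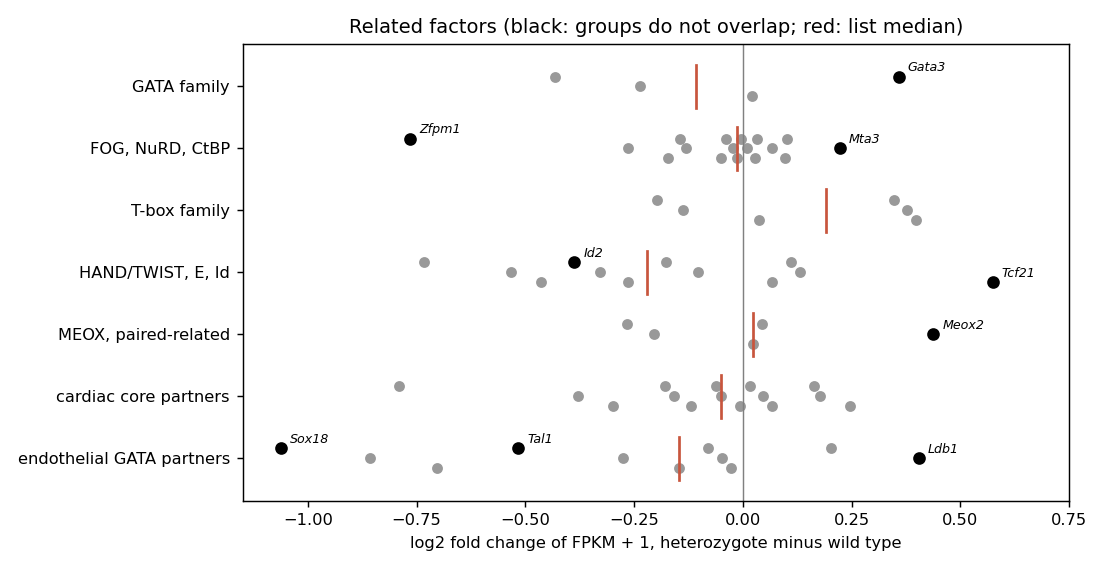
Log2 fold change of FPKM + 1 (heterozygote minus wild type) of the tested genes in 7 lists of related factors; black points are genes whose groups do not overlap, grey points the others, and red lines the list medians. Zfpm1 (-0.77) and Tcf21 (0.57) lie at the ends of their lists, and the list medians lie between -0.22 and 0.19.

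Over the 7 lists of related factors, which include the members, 70 genes were tested and 0 passed. Groups without overlap were found for 9 of these, 5 higher and 4 lower in heterozygotes. That is 12.9%, the same share to 3 digits as over all genes tested. The median log2 fold change was -0.05.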

How the data were processed

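RNA was sequenced from poly(A)-selected, randomly primed libraries, per the labels' protocols, whose kit is not described as keeping strand. Groups and replicate numbers come from the sample titles (3 wild type, 3 heterozygote). The column headers inside the heterozygote files carry other numbers than the titles, without changing the group. The deposited values are in FPKM, calculated by the authors. Whether reads or fragments were counted, with which tool and against which annotation, is not given in the sources used here. In the submitters' processing notes the tools are TopHat2, Bowtie2 2.2.3 and HISAT2 2.1.0 and the genome is GRCm38, with no roles given. Read numbers were recovered by multiplying FPKM by the exon-union length in GENCODE M21 (29687 of 29752 genes): for 94.5% to 94.8% of genes with few reads the result was whole within 0.01 reads, as it was for 8 of the 10 members. The exceptions were Gata6 and Zfpm2, for which no read numbers are given.

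The comparison was fitted with limma 3.58.1 (R 4.3.3) with a mean-variance trend on log2(FPKM + 1), pseudocount 1, over the 12620 genes that reached 1 FPKM in 3 or more libraries, with no covariate and Benjamini-Hochberg adjustment at 0.05. For single values the exact permutation test (two-sided) was used, whose smallest p is 0.1. In 5 simulated runs of this comparison, with 200 of the 12620 genes changed, 58.7% of genes changed 2-fold and 90.1% of those changed 4-fold were recovered. The mean number of false calls was 7.2 and 10.4. The folds were of FPKM + 1, which for low genes is a larger change of FPKM. Errors were drawn separately for each gene, so that differences shared by many genes of a library were not simulated. The rates may therefore be too high for these data. Promoters are the 250 bases before the RefSeq start. Gata4, Gata6, Zfpm2 and Meox1 had no promoter read. Tables were made in Python 3.11.15 (pandas 2.3.3, numpy 2.4.6, scipy 1.17.1), figures in matplotlib 3.10.9.

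The members and the 21 gene lists were chosen with earlier results of these data known. The lists of sympathetic neuron and of chromaffin and adrenal markers were added after the values of Hand2 were seen. All members are named, and of each related list up to 4 genes with the smallest p. Of marker lists, summed levels and up to 3 genes with the highest mean are named. Genes outside that rule (Hand1, Gata1, Gata5, Nkx2-5 and markers named singly) were chosen after their values were seen. A few single marker genes are not reported here. Alternatives were another pseudocount, no filter and a stricter one, a replicate block, median-of-ratios scaling, array quality weights, an adipocyte covariate, limma voom on recovered reads and leaving out each library.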

Additional observations from a re-analysis of the deposited data

How the results depend on the processing

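With all 6 libraries, 0 genes and 0 of the tested members passed under the pseudocount of 0.1, no filter, a filter of 3 FPKM, median-of-ratios scaling, the white adipocyte covariate and limma voom on recovered reads. At an unadjusted p under 0.05 voom had 815 genes, beside 820 in the comparison as reported, 2339 with the white adipocyte covariate and 3326 with array quality weights. With the covariate the limma adjusted p was 0.0682 for Zfpm1, 0.0932 for Gata6 and 0.103 for Tcf21. With array quality weights 232 genes passed, 150 higher and 82 lower, and with them 2 members (Zfpm1 and Tcf21). These weights are estimated from the same libraries. Leaving out 1 library at a time gave 0 to 1 genes passing, 0 members passing and 2 to 4 members whose groups do not overlap, with 4 of 7 without heterozygote replicate 1, among them Gata6 and Zfpm2, where the share over all genes was 25.7% because fewer libraries are compared. The filter of 3 FPKM removed Tcf21 and Meox1, and 1 member was then left with separate groups. The median log2 fold change of the tested members was -0.27 to -0.07 with 1 library left out. It was 0.06 without a filter, where Gata4, Tbx20 and Hand2 enter. The sign of Meox1 turned with array quality weights (-0.13), and its log2 fold change ran from -0.17 to 0.17 with 1 library left out. The other 6 tested members kept their direction under all alternatives in which they were tested. Scaling moved the median of all genes from 0.01 to -0.0012.

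With the replicate number as a block 0 genes passed, Zfpm1 had an adjusted p of 0.814 and Tcf21 one of 0.814. The labels do not say whether the numbers pair the samples. The deviations of same-numbered libraries correlated at 0.508, -0.0877 and -0.342, and of heterozygote libraries only replicate 1 correlated best with its own number. These correlations cannot decide on a pairing, because the libraries also differ in their cell type markers. Members under 1 FPKM rest on few reads, and differences in Gata4 could not be resolved.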

Other observations

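Hand1 and Hand2 were among a larger number of genes that stood out in heterozygote replicate 2. By 1 rule applied to every library, a gene was counted where it had at least 4 FPKM in that library and less than 1 FPKM in each of the other 5. There were 77 such genes for heterozygote replicate 2, among them Hand1, Hand2 and 5 of the 14 sympathetic neuron markers. The same rule found 0 genes for wild type replicate 1, 0 for wild type replicate 2 and 3 each for wild type replicate 3 and heterozygote replicates 1 and 3. The rule was chosen after the data were seen. The Schwann cell markers moved with these genes in heterozygote replicate 2: the glial factor Sox10 was at 7.19 FPKM there and at 1.24 to 1.39 FPKM in the other libraries.

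The remaining marker lists gave 0 genes passing. The macrophage markers summed to 321 to 414 FPKM in the wild-type libraries and 347 to 470 FPKM in the heterozygotes, and the T and B cell markers to 2.86 to 8.94 and 8.17 to 18.3 FPKM. The mesothelial and epicardial markers summed to 12.1 to 17.1 and 4.84 to 11.4 FPKM. The keratin Krt18, at 2.36 to 16.1 FPKM, was the largest term in every library, and the other markers were all below 1 FPKM. Heterozygote replicate 2, with the lowest sum, had the highest Upk3b (0.754 FPKM), Upk1b (0.327 FPKM), Krt19 (0.655 FPKM) and Wt1 (0.0841 FPKM), but not the highest Lrrn4, Msln or Krt8. The 4 chromaffin and adrenal cortex markers summed to 0.526 FPKM or less in every library.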
